A study of Mus musculus with 9 samples.

Results

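The Ly49 receptors, encoded by the mouse Klra genes, were examined in thymic invariant natural killer T (iNKT) cells. The table of gene expression held 12 rows whose symbol was Klra followed by a number, of 21883 rows in all, and all 12 were taken. Of these, 8 encode inhibiting receptors (Klra1, Klra2, Klra3, Klra5, Klra6, Klra7, Klra9 and Klra10), 1 encodes an activating receptor (Klra8), and 3 are pseudogenes (Klra11-ps, Klra13-ps and Klra14-ps). RNA sequencing had been performed on 9 libraries in 3 groups of 3. The groups were stage 2 cells from WT mice (WT_st2), stage 3 cells from WT mice (WT_st3) and stage 2 cells from Med23-deficient mice (KO_st2). The WT mice were C57BL/6 animals aged 6 weeks, and the labels gave no age for the Med23-deficient mice. In the study's methods these mice carried Med23 fl/fl alleles and the Cd4-Cre transgene on a B6 background, so deletion followed the Cd4 promoter in T lineage cells and was not restricted to iNKT cells. Both stages were sorted as CD24-low and CD44-high cells, stage 2 being NK1.1-low and stage 3 NK1.1-high. NK1.1 is the product of Klrb1c, so the sort on surface protein selected for a difference in Klrb1c between stages, without fixing its RNA level. The labels did not say whether the libraries of a group came from separate animals, and all p-values below measure only the spread between these libraries.

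iNKT cells are T cells that recognise lipids on CD1d and take on features of natural killer (NK) cells as they mature in the thymus. Ly49 receptors are C-type lectin-like proteins of NK cells and some T cells that bind MHC class I and related molecules. Inhibiting members carry an immunoreceptor tyrosine-based inhibitory motif (ITIM) near the start of the cytoplasmic tail, which recruits phosphatases. Activating members lack a working ITIM and pair with the adaptor DAP12, encoded by Tyrobp, and can also use DAP10, encoded by Hcst.

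The split into inhibiting and activating genes can be read in the first bases of the coding sequence. The first 60 coding bases of 5 inhibiting genes (Klra9, Klra3, Klra5, Klra10 and Klra1) and of both activating genes of this strain's annotation (Klra8 and Klra4) are shown 5′ to 3′ from GENCODE vM21 transcripts, with codon 8, the place of the ITIM tyrosine, in capitals.
Klra9: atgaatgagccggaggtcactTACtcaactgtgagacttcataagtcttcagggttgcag
Klra3: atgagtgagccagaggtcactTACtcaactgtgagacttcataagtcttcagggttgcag
Klra5: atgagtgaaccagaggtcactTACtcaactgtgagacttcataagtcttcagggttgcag
Klra10: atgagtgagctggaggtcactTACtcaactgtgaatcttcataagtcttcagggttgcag
Klra1: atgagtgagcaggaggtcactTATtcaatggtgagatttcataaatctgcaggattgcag
Klra8: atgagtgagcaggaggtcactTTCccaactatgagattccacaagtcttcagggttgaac
Klra4: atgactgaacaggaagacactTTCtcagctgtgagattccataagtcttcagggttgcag
All 8 inhibiting genes of the table had a tyrosine codon at this place, TAT in Klra1 and TAC in the others shown above and in Klra2, Klra6 and Klra7. Both activating genes had TTC, which encodes phenylalanine. A search of the coding sequence near its start for ITIM codons (valine, isoleucine, leucine or serine, any codon, tyrosine, any pair of codons, then valine, isoleucine or leucine) found 2 matches in Klra10 (codons 8 and 42), 1 in each other inhibiting gene, and 0 in Klra8 and Klra4. Klra4 (Ly49D) and Klra17 (Ly49Q) were not analysed here, so Klra8 alone represents the activating receptors.

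All 14 Klra genes of GENCODE vM21 lay on the minus strand of chromosome 6 (mm10), within the NK gene complex. Without Klra2 they spanned 555.721 kb, from 129831154 to 130386874, and Klra2 lay a further 832.348 kb away. Klra9 (ENSMUSG00000033024, Ly49I) occupied chr6:130178675-130193112, Klra1 (ENSMUSG00000079853, Ly49A) chr6:130363917-130386874, Klra3 (ENSMUSG00000067591, Ly49C) chr6:130323289-130337574 and Klra5 (ENSMUSG00000030173, Ly49E) chr6:129898996-129917650. Klra8 (ENSMUSG00000089727, Ly49H) occupied chr6:130115226-130129898.

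The genes are close relatives, so reads could be divided among them with error. The transcripts of Klra9 and Klra10 were 97.0% identical over 823 aligned bases, those of Klra9 and Klra3 96.2% over 1238 bases, and those of Klra8 and Klra14-ps 96.5% over 1103 bases. Of all windows of 100 bases in the Klra8 transcript, 14.4% were found without a mismatch in another Klra transcript. The share was 9.55% for Klra14-ps, 8.58% for Klra11-ps, 5.25% for Klra10, 4.41% for Klra9, 3.06% for Klra13-ps, 2.29% for Klra7, 1.93% for Klra3 and 0 for Klra1, Klra2, Klra5 and Klra6. The submitters kept reads that aligned to at most 2 places, so values of the genes with shared windows are less certain. The order of the genes depended on window length. With windows of 50 bases the share was highest for Klra10 (39.8%), Klra8 (33.1%) and Klra9 (32.4%). Klra14-ps, Klra11-ps and Klra3 followed with 22.0%, 21.6% and 21.5%, and Klra1, Klra6 and Klra5 had 3.15%, 2.62% and 0.732%. With 150 bases only Klra8 (6.03%) and Klra14-ps (4.82%) were above 0.

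Some start regions were alike as well. Those of Klra9, Klra3, Klra5 and Klra6 are printed as the most alike, each pair 89.0% to 96.4% identical over at least 150 aligned bases. Each window holds 300 bases, 250 before and 50 after the RefSeq start, on the minus strand of GRCm38.p6. Capitals mark a run of 21 bases shared by all. The windows are chr6:130193063-130193362 for Klra9, chr6:130337577-130337876 for Klra3, chr6:129913175-129913474 for Klra5 and chr6:130026905-130027204 for Klra6.
Klra9: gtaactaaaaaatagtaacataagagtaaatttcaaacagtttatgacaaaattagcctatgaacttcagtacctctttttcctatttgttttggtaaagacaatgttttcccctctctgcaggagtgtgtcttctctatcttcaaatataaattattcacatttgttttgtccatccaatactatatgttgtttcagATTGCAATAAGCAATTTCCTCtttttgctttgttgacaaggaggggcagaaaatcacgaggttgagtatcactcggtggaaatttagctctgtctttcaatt
Klra3: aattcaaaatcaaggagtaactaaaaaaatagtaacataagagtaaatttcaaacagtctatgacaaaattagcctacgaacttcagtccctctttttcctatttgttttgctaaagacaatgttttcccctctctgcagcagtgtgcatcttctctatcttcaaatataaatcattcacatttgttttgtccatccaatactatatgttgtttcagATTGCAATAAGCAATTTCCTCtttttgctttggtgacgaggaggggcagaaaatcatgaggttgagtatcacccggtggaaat
Klra5: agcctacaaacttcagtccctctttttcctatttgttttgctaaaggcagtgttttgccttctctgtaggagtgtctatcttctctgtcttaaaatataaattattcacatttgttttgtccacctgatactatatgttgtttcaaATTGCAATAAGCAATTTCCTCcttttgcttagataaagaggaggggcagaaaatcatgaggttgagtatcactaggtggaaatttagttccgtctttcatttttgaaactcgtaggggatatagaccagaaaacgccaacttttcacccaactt
Klra6: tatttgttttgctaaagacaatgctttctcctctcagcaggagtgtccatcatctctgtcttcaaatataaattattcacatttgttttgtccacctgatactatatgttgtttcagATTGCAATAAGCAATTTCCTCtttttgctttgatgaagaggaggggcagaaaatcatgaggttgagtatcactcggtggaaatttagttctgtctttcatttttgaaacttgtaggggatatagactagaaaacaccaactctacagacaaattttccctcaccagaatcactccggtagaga
The windows of Klra9 and Klra3 were 96.4% identical over 281 aligned bases. RefSeq held 13 such windows for 11 Klra genes, 9 of them members of the table. On both strands, the Runx motif TGTGGT was present in 1 of the 13 windows (Klra1) and in 16.8% of 32851 windows of all genes. The T-box motif GTGTGA was present in 1 window (Klra1) and in 14.5% of all windows. The TCF1/LEF1 motif CTTTGA was present in 3 windows (1 of Klra6 and both of Klra7) and in 16.0% of all windows, and the AP-1 motif TGANTCA in 1 window (Klra2) and in 7.81% of all windows. None of the motifs contains another, and a match describes the sequence only.

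The libraries were checked before the members were compared. Between 15584 and 17333 genes were above 0 per library, and none of 10 housekeeping genes was at 0 in any library. Read depth is unknown, because only values normalised to transcript length and to the mapped fragments of a library (FPKM) were given, with 2 decimals. Med23, the targeted gene, was at 5.51, 5.15 and 6.74 FPKM in WT_st2, 7.14, 4.44 and 6.12 in WT_st3, and 4.8, 3.6 and 3.92 in KO_st2. Its 3 KO_st2 values lay below all WT_st2 values, with a log2 difference of -0.41 that did not pass the test (limma, Benjamini-Hochberg adjusted p = 0.552). A value per gene does not separate the deleted part from the rest of the transcript. All 8 iNKT markers listed (Cd3e, Cd3g, Trbc2, Zbtb16, Cd44, Cd4, Il2rb and Cd5) were present in all libraries, with sums of 894 to 1037 FPKM. Markers of double-positive thymocytes, B cells, myeloid cells and erythroid cells summed to at most 5.05, 0.5, 1.9 and 0.75 FPKM, and those of plasmacytoid dendritic cells to between 12.2 and 31.7, mostly from Bst2 and Ccr9.

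Ly49 transcripts were far more abundant in stage 3 than in stage 2 WT cells and were scarce in Med23-deficient stage 2 cells. The 12 rows summed to 45.8 ± 8.58 FPKM (SD, n = 3) in WT_st2, to 502 ± 93.8 in WT_st3 and to 9.41 ± 3.43 in KO_st2. The ranges, 35.98 to 51.89, 446.66 to 610.43 and 6.64 to 13.24, did not overlap. The mean of WT_st3 was 11.0 times that of WT_st2, and the mean of WT_st2 was 4.87 times that of KO_st2. Without Klra9, the most abundant member, these ratios were 6.62 and 3.75. The number of rows above 0 in a library was 7 to 8 in WT_st2, 9 to 11 in WT_st3 and 3 to 5 in KO_st2. In such bulk samples, fewer cells that express a gene and less RNA per cell cannot be told apart.

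**Figure D1:**
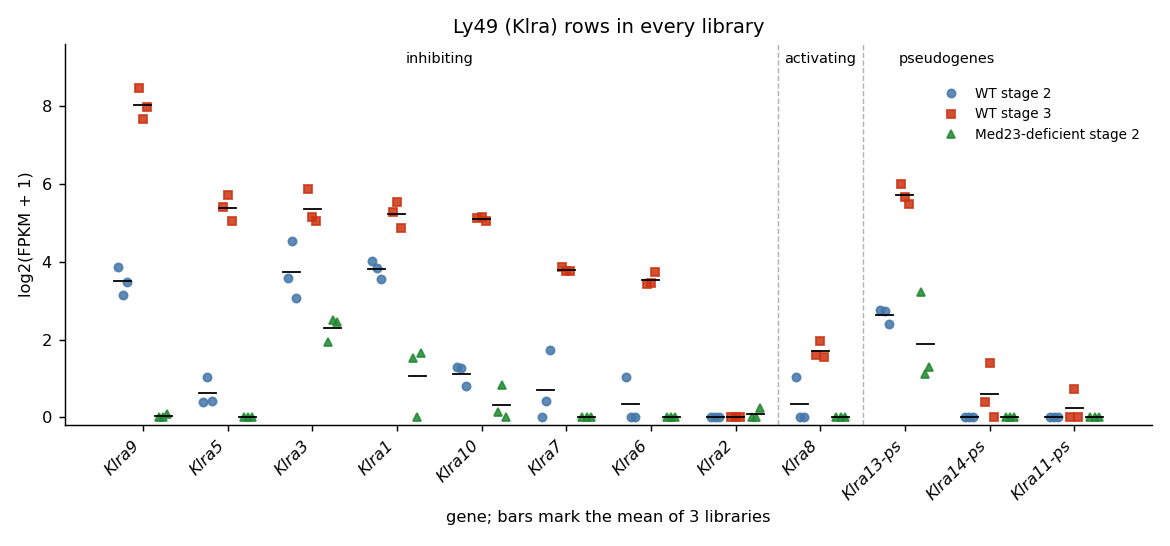
Level of each Klra row as log2(FPKM + 1) in the 9 libraries, with points for libraries, black bars for the mean of 3, and dashed lines between inhibiting, activating and pseudogene rows. The Klra9 points of WT stage 3 stand highest, and the Klra5, Klra6, Klra7 and Klra8 points of Med23-deficient stage 2 all lie at 0.

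The first comparison asked which Ly49 genes accompany the passage from stage 2 to stage 3. Of the 12 rows, 7 rose and none fell, in a background in which 0.759% of 20689 genes tested rose and 0.914% fell (limma on log2(FPKM + 1), Benjamini-Hochberg adjusted p of at most 0.05). This balance depended on scaling, with 161 higher and 134 lower after scaling to a common upper quartile and 190 and 177 after quantile normalization. A linear model without moderation, in the manner of Ballgown, called none of the 11 rows tested (adjusted p of at least 0.162). With a term for the replicate number in limma (replicate block) 4 rows were called, and Klra1, Klra6 and Klra7 were not. Klra2 was at 0 in all 6 libraries and was not tested. By the other threshold, a fold of at least 2 with an unadjusted p of at most 0.05, 9 rows were higher against 1.70% of genes. The libraries of 9 rows lay wholly above those of stage 2, against 7.36% of genes. On the same log2 scale the median difference over the 12 rows was 2.36, with Klra2 at 0 in both groups, beside -0.00 over all 21883 rows.

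Klra9, the inhibiting receptor Ly49I, was the most abundant in stage 3 and rose steeply. It was at 13.64, 7.92 and 10.2 FPKM in WT_st2 and at 350.92, 202.75 and 253.48 in WT_st3. Every stage 3 library stood far above every stage 2 library, with a log2 difference of 4.54 ± 0.26 (SE, limma adjusted p = 0.00406). Klra10, the inhibiting receptor Ly49J and closest in transcript sequence to Klra9, was at 1.46, 1.43 and 0.74 FPKM in WT_st2 and at 34.03, 34.27 and 32.3 in WT_st3. The stage 3 libraries were nearly level with one another, and the log2 difference was 3.98 ± 0.17 (SE, limma adjusted p = 0.00368). Its level is less certain because of the bases it shares with Klra9 and Klra3.

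Klra5, the inhibiting receptor Ly49E, showed the widest difference on the log2(FPKM + 1) scale, although on the TPM scale Klra9 had 4.39 against its 4.34, and with a pseudocount of 0.01 Klra6 had 7.80 against its 6.39. Klra5 was at 0.31, 1.06 and 0.33 FPKM in WT_st2 and at 41.21, 51.77 and 32.31 in WT_st3. All stage 2 values were close to 0 and the groups did not overlap, with a log2 difference of 4.78 ± 0.26 (SE, limma adjusted p = 0.00368). Klra6, the inhibiting receptor Ly49F and next to Klra5 among the members on the chromosome, was at 1.06, 0 and 0 FPKM in WT_st2 and at 9.73, 9.93 and 12.26 in WT_st3. It rose by 3.19 ± 0.35 on the log2 scale (SE, limma adjusted p = 0.0196), and lost the call without any single library except WT_st2 replicate 1 (adjusted p of 0.0518 to 0.0995) and with a pseudocount of 0.01 (0.0861).

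Klra7, the inhibiting receptor Ly49G, was at 0, 0.33 and 2.3 FPKM in WT_st2 and at 13.54, 12.61 and 12.55 in WT_st3. The stage 3 libraries were alike while stage 2 ranged from 0 to 2.3, and the log2 difference was 3.08 ± 0.45 (SE, limma adjusted p = 0.0412). The call was kept without WT_st2 replicate 3 and lost without each other library (adjusted p of 0.0856 to 0.139), with no filter (0.0663) and with a pseudocount of 0.1 (0.0878) or 0.01 (0.166). Klra13-ps, a transcribed pseudogene next to Klra10, was at 5.81, 5.7 and 4.24 FPKM in WT_st2 and at 63.4, 50 and 44.09 in WT_st3. It rose by 3.09 ± 0.18 on the log2 scale (SE, limma adjusted p = 0.00406) and was second to Klra9 by its mean in stage 3.

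Klra1 and Klra3 were, with Klra9, the most abundant members in stage 2. Klra1, the inhibiting receptor Ly49A, was at 15.14, 13.35 and 10.84 FPKM in WT_st2 and at 38, 45.31 and 28.12 in WT_st3. The groups did not overlap and the log2 difference was 1.42 ± 0.21 (SE, limma adjusted p = 0.0402). This call was lost without any 1 of the 6 libraries (adjusted p of 0.0679 to 0.120) and with no filter (0.0650). It was also lost on the TPM scale (0.0593), with a replicate block (0.0867) and with all 9 libraries in 1 model (0.162). Klra3, the inhibiting receptor Ly49C, was at 11.03, 22.1 and 7.33 FPKM in WT_st2 and at 57.22, 34.83 and 32.31 in WT_st3. All stage 3 values were above all stage 2 values, but the spread in stage 2 was wide and the log2 difference of 1.64 ± 0.41 (SE) did not pass the test (limma adjusted p = 0.146).

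Klra8, the activating receptor Ly49H, stayed low. It was at 1.07, 0 and 0 FPKM in WT_st2 and at 2.06, 2.92 and 1.95 in WT_st3. The groups did not overlap, but the log2 difference of 1.37 ± 0.35 (SE) did not pass the test (limma adjusted p = 0.154). The pseudogene Klra14-ps, which shares many bases with Klra8, was at 0 in all WT_st2 libraries and at 0.32, 1.62 and 0 in WT_st3. Klra11-ps was at 0 in all WT_st2 libraries and at 0, 0.65 and 0 FPKM in WT_st3.

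Stage 2 held different portions of the stage 3 level from gene to gene. The WT_st2 mean was 35.3% of the WT_st3 mean for Klra1 and 32.5% for Klra3, with ranges of 31.5% to 39.7% and 22.1% to 40.2% when 1 library was left out. It was 3.93% for Klra9 and 3.61% for Klra10, with ranges of 3.37% to 4.64% and 3.24% to 4.31%. Klra13-ps had means of 5.25 ± 0.876 and 52.5 ± 9.89 FPKM (SD, n = 3). The portions of the other 4 genes moved further, in relative terms, when a single stage 2 library was left out. Those of Klra8 (15.4%) and Klra6 (3.32%) became 0 without WT_st2 replicate 1, that of Klra7 (6.80%) became 1.28% without WT_st2 replicate 3, and that of Klra5 (1.36%) became 0.766% without WT_st2 replicate 2. The portion of Klra9 was below that of Klra3 and close to that of Klra10, whose transcript is 97.0% identical to its own. Whether reads divided between Klra9 and Klra10 made their portions alike was not tested. Klrb1c, the gene of the sort marker, had 22.3%. Leaving out libraries here was chosen after the values were seen. These portions are descriptions and the differences between genes were not tested.

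The make-up of the family changed between stages. In WT_st2 the largest shares of the summed FPKM were 28.8% for Klra1, 28.4% for Klra3 and 23.7% for Klra9. In WT_st3 Klra9 alone made up 53.1%, followed by Klra13-ps with 10.5%, Klra5 with 8.51%, Klra3 with 8.12%, Klra1 with 7.54% and Klra10 with 6.81%. The inhibiting genes together held 86.1% to 89.0% of the sum in the WT_st2 libraries and 87.6% to 89.8% in the WT_st3 libraries. Klra8 held 0.475% ± 0.162 (SD, n = 3) in WT_st3, or 0.995% with Klra9 left out of the sum. In WT_st2 its share was 2.16% in replicate 1 and 0 in the others.

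**Figure D2:**
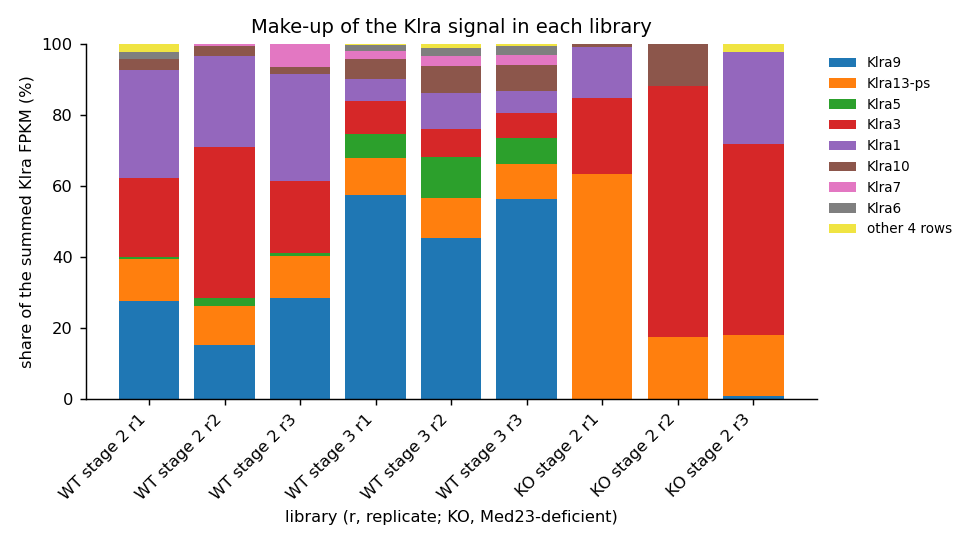
Share of the summed Klra FPKM taken by each row, in percent, with 1 stacked bar per library. The Klra9 block is the largest in each WT stage 3 library, and Klra13-ps takes 63.4% in Med23-deficient stage 2 replicate 1.

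The order of levels was partly resolved by the 3 libraries of each group. In WT_st3, Klra9 lay wholly above Klra13-ps, while neighbours in the order Klra13-ps, Klra5, Klra3, Klra1 and Klra10 overlapped. Klra10 lay above Klra7, Klra7 above Klra6, Klra6 above Klra8, and Klra8 above Klra14-ps in all libraries. In WT_st2, the ranges of Klra3, Klra1 and Klra9 overlapped as neighbours, Klra9 lay above Klra13-ps and Klra13-ps above Klra10. From Klra10 downward, through Klra7, Klra5, Klra8 and Klra6, neighbours overlapped. In KO_st2 all neighbours in the order overlapped, beginning with Klra3, Klra13-ps, Klra1 and Klra10.

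**Figure D3:**
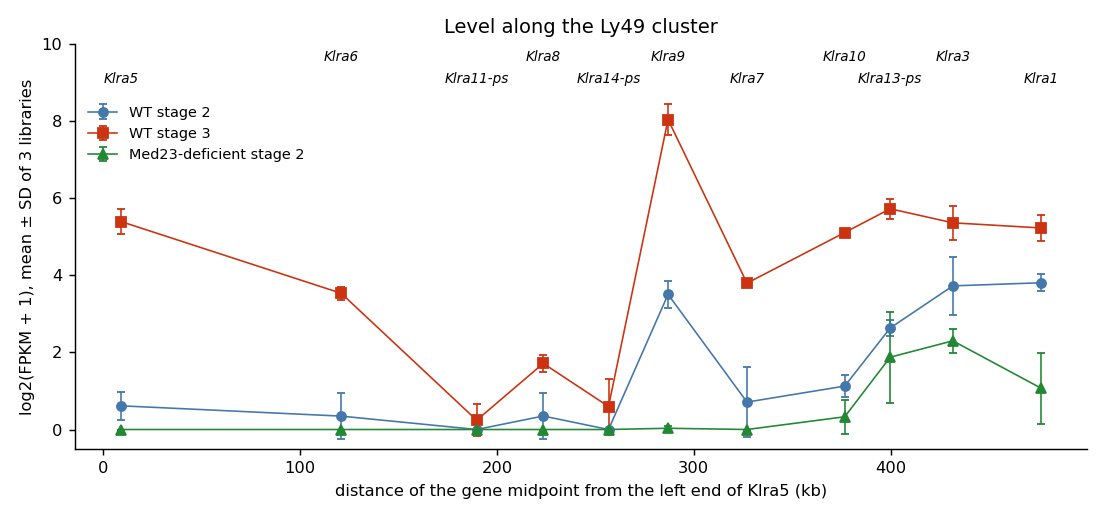
Mean log2(FPKM + 1) with SD of 3 libraries per group for 11 rows, placed by the distance in kb of the gene midpoint from the left end of Klra5. In WT stage 3 the level is highest at Klra9 and low at Klra11-ps, Klra8 and Klra14-ps beside it, and the WT stage 2 level is highest at Klra1 and Klra3 on the right and at Klra9.

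Along the chromosome, high and low members were neighbours. Klra11-ps, Klra8 and Klra14-ps follow one another and had WT_st3 means of 0.217, 2.31 and 0.647 FPKM. Klra9 lies 16.105 kb beyond Klra14-ps and had a mean of 269 ± 75.3 FPKM (SD, n = 3), and Klra7, 25.492 kb further on, had 12.9 ± 0.555. Klra2, far from the cluster, was at 0 in all WT libraries and at 0.19 FPKM in 1 KO_st2 library.

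The second comparison asked how the loss of Med23 related to Ly49 expression within stage 2. Of the 12 rows, 1 fell and none rose, in a background in which 0.145% of 20674 genes tested fell and 0.0677% rose. The row that fell was Klra9. By the fold and unadjusted p thresholds 3 rows were lower (Klra9, Klra1 and Klra3) against 1.32% of genes. The KO_st2 libraries of 4 rows lay wholly below those of WT_st2, against 8.37% of genes. Klra11-ps and Klra14-ps were at 0 in all 6 libraries and were not tested. The median log2 difference over the 12 rows was -0.66 beside 0 over all 21883 rows. This comparison shares its WT_st2 libraries with the first, so the differences of a gene in the 2 comparisons are not independent. The KO_st2 libraries were registered apart from the WT libraries, and only they lack an age. A genotype difference cannot be told apart from a difference in age or preparation between these sets.

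Klra9 was at 0, 0 and 0.07 FPKM in KO_st2, against 7.92 to 13.64 in WT_st2. It was nearly absent from all 3 libraries and fell by 3.47 on the log2 scale (SE 0.27, limma adjusted p = 0.0253). Left without any 1 of the 6 libraries, it did not pass the test (adjusted p of 0.0753 to 0.118). Nor did it pass in the linear model without moderation (0.324) or with a replicate block. Klra1 was at 1.9, 0 and 2.17 FPKM in KO_st2, below all WT_st2 libraries, and its log2 difference of -2.74 did not pass the test (limma adjusted p = 0.118). Klra3 was at 2.84, 4.69 and 4.47 FPKM in KO_st2, again below all WT_st2 libraries, with a log2 difference of -1.43 (limma adjusted p = 0.301). It was the most abundant member of KO_st2 and took 48.6% ± 25.0 (SD, n = 3) of the summed FPKM.

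The other inhibiting genes were low in WT_st2 already. Klra5 was at 0 in all 3 KO_st2 libraries, against 0.31 to 1.06 FPKM in WT_st2, which did not overlap (limma adjusted p = 0.354). Klra10 was at 0.11, 0.79 and 0 FPKM in KO_st2, overlapping with WT_st2 (limma adjusted p = 0.442). Klra6, Klra7 and the activating Klra8 were at 0 in all KO_st2 libraries and also at 0 in at least 1 WT_st2 library (limma adjusted p of 0.684 to 0.731). Klra13-ps was at 8.39, 1.16 and 1.44 FPKM in KO_st2. The first of these was above every WT_st2 library and the others below, with a log2 difference of -0.76 (limma adjusted p = 0.731). It made up 63.4% of the family sum in KO_st2 replicate 1, and without that library the ratio of the WT_st2 to the KO_st2 mean of summed FPKM was 6.11 instead of 4.87.

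Klrb1c moved with these values. It was at 16.7 ± 9.30 FPKM (SD, n = 3) in WT_st2 and 3.42 ± 1.05 in KO_st2, that is 20.4% of the WT mean, although both were sorted as NK1.1-low (limma adjusted p = 0.210). Its part in the Ly49 differences was not tested.

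The third comparison set KO_st2 against WT_st3, which differ in both genotype and stage. Of the 12 rows, 9 fell and none rose, in a background in which 0.628% of 20846 genes tested fell and 0.705% rose. All 12 rows were tested, and the linear model without moderation called 1 of them, Klra7 (adjusted p = 0.00762). KO_st2 was lower by fold and unadjusted p in 9 rows against 1.48% of genes, and lay wholly below WT_st3 in 9 rows against 6.75%. The log2 difference was -8.01 for Klra9 (limma adjusted p = 0.000375), -4.78 for Klra10 (0.0016), -4.16 for Klra1 (0.0202), -3.85 for Klra13-ps (0.0435) and -3.06 for Klra3 (0.00915). Klra5, Klra6, Klra7 and Klra8 also fell (limma adjusted p of 0.000692 to 0.0178) and were at 0 in every KO_st2 library, so no fold is given. Klra8 lost the call without each single library except WT_st3 replicate 2 (adjusted p of 0.0539 to 0.0880). Klra1 was lost without KO_st2 replicate 1 or any WT_st3 library (adjusted p of 0.0565 to 0.0902) and with a pseudocount of 0.1 (0.0949) or 0.01 (0.208). Klra13-ps was lost without each library except KO_st2 replicate 1 (0.112 to 0.152), with no filter (0.0921), with quantile normalization (0.0559) and without a trend (0.0658). A replicate block also ended the calls of Klra1, Klra3, Klra8 and Klra13-ps.

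Other cell types that carry Ly49 receptors were examined by their markers. Of 8 NK cell markers listed, 4 had rows (Cd160, Prf1, Itga2 and Eomes), which summed to 9.37 to 11.33 FPKM in WT_st2, 36.1 to 41.3 in WT_st3 and 11.0 to 16.7 in KO_st2. Cd160 and the perforin gene Prf1 rose from stage 2 to stage 3, by 1.49 and 2.31 on the log2 scale (limma adjusted p = 0.0122 and 0.0160), and iNKT cells can express both. Itga2 and Eomes did not pass between stages. In KO_st2 against WT_st2 none of the 4 passed the adjusted test in limma, but 2 passed the fold and unadjusted p thresholds in opposite directions. Itga2, the integrin α2 chain, was at 1.23, 1.5 and 0.9 FPKM in WT_st2 and 4.22, 4.01 and 4.92 in KO_st2 (log2 difference 1.29, limma adjusted p = 0.132). Prf1 was at 2.01, 3.79 and 2.01 FPKM in WT_st2 and 0.43, 0.72 and 0.55 in KO_st2 (-1.17, limma adjusted p = 0.230). Eomes, a defining factor of NK cells, was at 0 in all WT_st3 and KO_st2 libraries and at 0.24 FPKM in 1 WT_st2 library. All 6 γδ T cell markers had rows, and they summed to 301 to 331 FPKM in WT_st2, 259 to 300 in WT_st3 and 8.70 to 9.11 in KO_st2. This came from the constant region genes of the γ chain, Tcrg-C1, Tcrg-C2 and Tcrg-C4, which can be transcribed in αβ T cells too. Trdc, the constant region of the δ chain, was at 0 to 0.38 FPKM in all 9 libraries. In KO_st2 against WT_st2, 3 of the 6 fell (Tcrg-C1, Tcrg-C2 and Blk), beside 0.145% of all genes tested. Tcrg-C4 was at 67.3 ± 2.76 FPKM (SD, n = 3) in WT_st2 and 1.79 ± 2.44 in KO_st2. These libraries did not overlap, but its log2 difference of -4.99 did not pass the test (limma adjusted p = 0.0550). The part of these genes in the Ly49 differences was not tested.

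The receptors work with adaptors, kinases and phosphatases, which were examined as lists. Among 4 adaptor chains of activating receptors, 1 rose from WT_st2 to WT_st3 and none fell, beside 0.759% and 0.914% of all genes tested. That gene, Fcer1g, encodes the common Fc receptor γ chain and was at 0.3, 0 and 1.48 FPKM in WT_st2, 38.78, 41.29 and 30.5 in WT_st3 and 3.8, 1.24 and 2.23 in KO_st2. Its log2 difference between stages was 4.67 ± 0.35 (SE, limma adjusted p = 0.00843). Tyrobp, the partner of Klra8, was at 0 in all stage 2 libraries of both genotypes and at 1.15, 5.78 and 2.14 FPKM in WT_st3 (limma adjusted p = 0.123). Hcst was at 25.16, 29.31 and 24.43 FPKM in WT_st2, 45.94, 35.16 and 30.35 in WT_st3 and 18.57, 32.75 and 24.88 in KO_st2. It was present at all stages and did not pass the test (limma adjusted p = 0.301 between stages and 0.909 between genotypes). In stage 3 the levels of Klra8 and Tyrobp, per length, were both below those of Hcst and Fcer1g in every library.

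Of 13 kinases and adaptors below the activating chains, 1 rose from stage 2 to stage 3, the phosphoinositide 3-kinase gene Pik3cd, by 0.58 on the log2 scale (limma adjusted p = 0.0295). The list's median difference was -0.02, beside -0.01 over all genes tested, of which 0.759% rose. Of 3 phosphatases recruited by ITIMs (Ptpn6, Ptpn11 and Inpp5d), 0 passed the adjusted test in limma between stages or between genotypes, and 0 and 1 had an unadjusted p of at most 0.05. Ptpn6, encoding SHP-1, was at 163.5, 146.33 and 160.71 FPKM in WT_st2 and 249.54, 177.73 and 172.08 in WT_st3. Of 6 genes of Ly49 ligands and of their assembly, 1 rose between stages, the class I gene H2-K1, by 0.69 on the log2 scale (limma adjusted p = 0.0420). Between genotypes at stage 2, 0 adaptors of 3 tested, 0 of the 13 kinases and adaptors below them and 0 of the 6 ligand genes passed in limma, and 1, 1 and 2 of these had an unadjusted p of at most 0.05. These were Fcer1g, Vav2, H2-K1 and H2-D1, all higher in KO_st2 (log2 differences of 1.14, 0.83, 0.73 and 0.51). Fcer1g also passed the fold threshold, although its libraries overlapped. A linear model without moderation called none of the adaptors, kinases and ligand genes between genotypes. It called hardly any gene at all in that comparison, so this count cannot decide. The share of all genes with an unadjusted p of at most 0.05 was not computed, so the counts at that p have no background here.

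The other lectin-like receptors of the NK gene complex formed the nearest comparison. Of 16 rows, 8 rose from WT_st2 to WT_st3 and none fell, beside 0.759% and 0.914% of all genes tested. The median log2 difference was 2.22. A linear model without moderation, which called 5 genes in all between stages, called 0 of the 16. Klrd1, encoding CD94, was at 9.49 ± 4.27 FPKM (SD, n = 3) in WT_st2 and 74.7 ± 5.41 in WT_st3 (log2 difference 2.95, limma adjusted p = 0.0230). Klrc1, encoding the inhibiting NKG2A chain that pairs with CD94, was at 2.58 ± 1.92 and 37.9 ± 6.65 (3.55, limma adjusted p = 0.0185). Klrk1, encoding the activating receptor NKG2D, was at 1.45 ± 0.304 and 24.9 ± 6.41 (3.37, limma adjusted p = 0.00665). Klrc2, encoding the activating NKG2C chain, rose by 3.40 (limma adjusted p = 0.0118). In KO_st2 against WT_st2 a linear model without moderation called none of the 16. It called hardly any gene at all there, so this count cannot decide. In limma, 0 of the 16 passed the adjusted threshold. An unadjusted p of at most 0.05 was found for 8, and the share of all genes at that p was not computed. Of these 8, 4 were also lower by the fold threshold (Klrb1c, Klrd1, Klrb1a and Klrc1), against 1.32% of genes. The median log2 difference of the 15 tested was -0.76, beside -0.01 over all genes tested. Klrc1, Klrb1a, Klrc3, Klre1, Klri1 and Klri2 were at 0 in all KO_st2 libraries, and Klri1 was at 0 in all WT_st2 libraries too. In KO_st2 against WT_st3, 10 of the 16 fell, beside 0.628% of all genes tested.

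**Figure D4:**
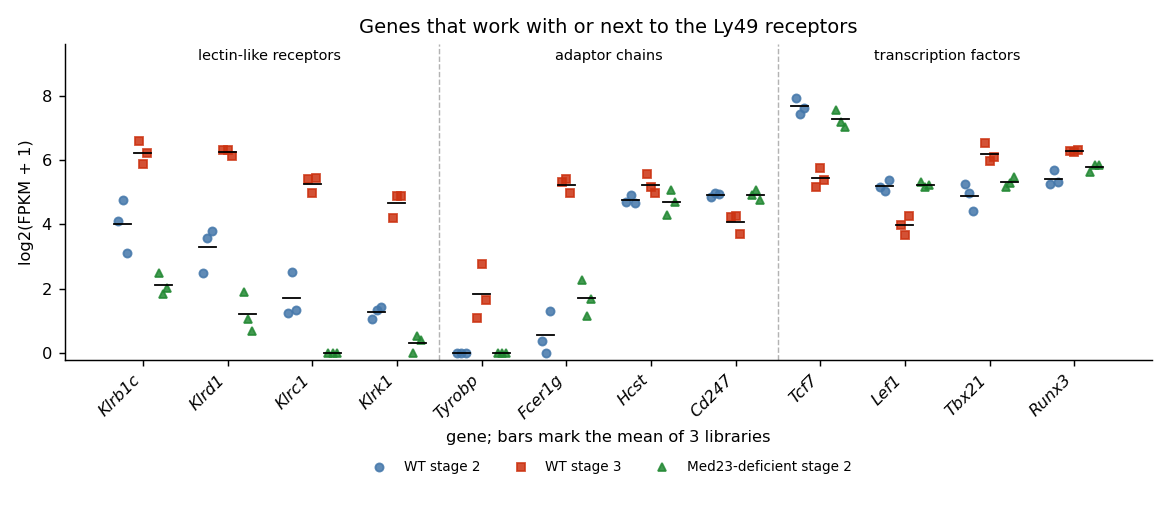
Level of 4 other lectin-like receptor genes, 4 adaptor chains and 4 transcription factors as log2(FPKM + 1), with points for the 9 libraries and black bars for the mean of 3. Klrd1, Klrc1, Klrk1 and Fcer1g are higher in WT stage 3 than in all stage 2 libraries, Hcst overlaps between the stage 2 genotypes, and Tcf7 and Lef1 are lowest in WT stage 3.

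Of 16 transcription factors that have been linked with Ly49 expression or with iNKT and NK cell maturation, 1 rose and 3 fell from stage 2 to stage 3. Over all genes tested, 0.759% rose and 0.914% fell. Runx3, a Runx factor of NK and CD8 cells, rose by 0.87 on the log2 scale (limma adjusted p = 0.0399). Tcf7, encoding TCF1, Zbtb16, encoding PLZF, and Lef1 fell, with log2 differences of -2.23, -1.85 and -1.22 (limma adjusted p = 0.0118, 0.0122 and 0.0408). Tbx21, encoding T-bet, had a log2 difference of 1.31 that did not pass the test (limma adjusted p = 0.0742). Between genotypes at stage 2 a linear model without moderation called none of the 16, but it called hardly any gene at all. That count cannot decide. In limma, 0 of the 16 passed the adjusted threshold. An unadjusted p of at most 0.05 was found for 5, none with a fold of 2, and the share of all genes at that p was not computed. Among the 5, Runx3 was at 42.1 ± 6.94 FPKM (SD, n = 3) in WT_st2 and 53.6 ± 4.18 in KO_st2. Gata3 was also higher in KO_st2 (38.8 ± 3.38 and 69.2 ± 8.26). Id2 (267 ± 17.8 and 205 ± 22.8), Cbfb (30.3 ± 0.28 and 23.5 ± 2.38) and Zbtb16 (101 ± 12.3 and 78.1 ± 11.6) were lower in KO_st2. Tbx21, not among the 5, was at 29.4 ± 8.43 FPKM in WT_st2 and 38.9 ± 4.40 in KO_st2. Il2rb, the β chain of the IL-15 receptor, rose between stages by 1.36 (limma adjusted p = 0.0171) and was at 121 ± 15.6 in WT_st2 and 129 ± 30.0 in KO_st2.

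Across the 9 libraries, the genes most like the summed Klra level were ranked among 9654 genes by Pearson's r on the log2(value + 1) scale. The closest 5 were Itgb1 (0.986), Klrc1 (0.983), Prf1 (0.983), Sept11 (0.981) and Rcbtb2 (0.981), and Klrb1c had 0.980. The libraries fall into 3 groups, so these values describe the order of the groups. Itgb1, the integrin β1 chain, was at 25.8 ± 3.63 FPKM (SD, n = 3) in WT_st2, 50.4 ± 4.89 in WT_st3 and 14.0 ± 1.51 in KO_st2.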

How the data were processed

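RNA sequencing of 9 libraries, 3 in each of 3 groups set by the labels, was analysed. Libraries were made with a SMARTer stranded total RNA kit for small inputs. The deposited values are FPKM per gene, for which the authors trimmed reads with Trimmomatic 0.36, aligned them to mm10 with HISAT2, keeping reads with at most 2 places, and used StringTie with GENCODE vM12. Read counts were not used here and depth is unknown, so no counting interval or floor is given.

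Each comparison used its 6 libraries and the genes above 0 in at least 1 of them. A linear model with empirical Bayes moderation and a mean trend (limma 3.58.1, R 4.3.3) was fitted to log2(FPKM + 1), 2-sided, with Benjamini-Hochberg adjustment over all genes tested. Differences on this scale understate changes of low genes. Calls needed an adjusted p of at most 0.05. A second rule used the thresholds of the study's methods, a 2-fold difference with p up to 0.05 before adjustment. The script was tested on simulated data. Named genes were all Klra rows, and genes of fixed lists by their calls or defining role. The members and the lists were chosen with earlier results of these data known. Sequences came from GENCODE vM21 and RefSeq (Biopython 1.88, Python 3.11.15). Alternatives covered pseudocount, filter, scaling, model, replicate block and left-out libraries.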

Additional observations from a re-analysis of the deposited data

How the results depend on the processing

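No log2 difference of a tested Klra row changed sign under the alternatives run. From WT_st2 to WT_st3 the 7 Klra calls became 0 with a linear model without moderation in the manner of Ballgown, 4 with a replicate block and 4 to 5 without 1 library. Klra5, Klra9, Klra10 and Klra13-ps were called without each library in turn. The 16 calls among the other listed genes became 0, 1 and 0 to 8 in the same order, and 25 with all 9 libraries in 1 model. In KO_st2 against WT_st2 the 1 Klra call became 0 with the Ballgown-style model, the replicate block and each left-out library, and 2 with a mean FPKM of at least 1 or with all 9 libraries. The 3 Klra rows past fold and unadjusted p became 5 with a pseudocount of 0.1. The 0 calls of the other listed genes became 1 with a pseudocount of 0.01, 3 with a mean FPKM of at least 1, 1 with quantile normalization and 2 with all 9 libraries. In KO_st2 against WT_st3 the 9 Klra calls became 1 with the Ballgown-style model, 5 with the replicate block and 6 to 7 without 1 library, and the 17 of the other listed genes became 0, 5 and 7 to 10. The causes were not tested. Without Klra9 the ratios of summed FPKM were 6.62 and 3.75 and the activating share 0.995%, and without 1 library they ranged from 9.78 to 11.7, from 4.24 to 6.11 and from 0.386% to 0.544%.

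Over all genes, the 346, 44 and 278 calls became 5, 1 and 18 with the Ballgown-style model and 19, 0 and 42 with the replicate block. Without 1 library they ranged from 22 to 137, from 1 to 8 and from 72 to 174. The 346 became 230 without a filter, 219 on the TPM scale and 600 with all 9 libraries. The 44 became 77 with a pseudocount of 0.01, 143 with a mean FPKM of at least 1, 28 on the TPM scale and 162 with all 9 libraries. The 745, 437 and 597 genes past fold and unadjusted p became 1423, 971 and 1221 with a pseudocount of 0.1 and 1452, 974 and 1211 with 0.01. In KO_st2 against WT_st2 the share of adjusted calls that were higher, 31.8%, became 14.3% on the TPM scale and 43.8% with a common upper quartile, and that of the fold rule, 37.8%, became 26.0% on the TPM scale and 51.8% with the Ballgown-style model. From WT_st2 to WT_st3 the share of adjusted calls that were higher, 45.4%, became 38.8% on the TPM scale, 54.6% with a common upper quartile, 51.8% with quantile normalization and 78.9% with the replicate block, and in KO_st2 against WT_st3 52.9% became 33.3% with the replicate block. Same-numbered libraries had deviations correlated at 0.031 to 0.161 for WT_st3 and WT_st2, 0.004 to 0.144 for KO_st2 and WT_st2, and 0.042 to 0.272 for KO_st2 and WT_st3. All 6, 2 of 6 and 3 of 6 libraries correlated best with their own number, which is a hint from the data and not the design, so the numbers were not taken to pair the libraries. With FPKM alone, values near 0 cannot be separated from missed reads.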
